A study of Mus musculus with 6 samples.

Results

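Mitochondrial ribosomal protein genes are the nuclear genes for the protein part of the ribosome inside mitochondria, and they were taken as every gene whose symbol starts with Mrpl or Mrps followed by a number. The rule found 77 of the 23183 genes in the tables, 48 named Mrpl (for the large subunit) and 29 named Mrps (for the small subunit), and 0 symbols of the family carried the pseudogene ending -ps. Values for all 77 were present in all 6 libraries, and all 77 passed the filter on low values. The libraries were made from RNA of mouse lung tissue on a C57BL/6 background. Saline was instilled through the trachea in 3 libraries (saline 1 to 3), whose labels name wild-type mice. LPS (lipopolysaccharide), a bacterial outer membrane glycolipid that sets off inflammation, was instilled in the same way in the other 3 (LPS 1 to 3). The titles and design text call the LPS mice wild type too, but their genotype field names a knockout of LCN2 for LPS 1 and LPS 2 and of LCN4 for LPS 3. The RNA of Lcn2, the lipocalin-2 gene of the study's title, was at 13.60, 13.29 and 13.82 in LPS 1, 2 and 3 and at 8.20, 11.28 and 10.11 in saline 1, 2 and 3 (log2 scale), so that its level goes against the knockout label of LPS 1 and LPS 2. Were those labels correct, genotype and LPS could not be told apart. The sources used here give no dose, time after instillation, sex or age, and do not say whether each library is a separate mouse. The p-values thus rest on the variation among these 6 samples alone, and that variation may be technical.

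The mitochondrial ribosome translates the few proteins encoded in mitochondrial DNA, all of them subunits of the oxidative phosphorylation complexes. Its ribosomal RNA is made in the mitochondrion, whereas its proteins are encoded in the nucleus, made in the cytosol and imported. One set of these proteins has counterparts in the bacterial ribosome and another set is found only in mitochondria. Because each functional ribosome holds the proteins in fixed proportion, the genes are usually regarded as housekeeping genes and are expressed in every cell type of the lung.

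Levels are the deposited values, read as log2(value + 1), and a difference is the LPS mean minus the saline mean of these. Before the log, values seem to be per transcript length, and levels are compared between genes on that footing. Defining lung markers were present: all 12 on the list passed the filter on low values, and the summed value before the log over these 12 was 82793 to 119864 in saline and 166187 to 182393 in LPS, most of it from the club cell gene Scgb1a1. Library depth is unknown from the tables. The table of LPS 3 ends at the symbol Slc25a45, so that 18699 genes have a value in all 6 libraries, and some genes of other lists below have 2 LPS values.

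As deposited, 52 of the 77 genes were higher in LPS and 0 were lower (limma, adjusted p under 0.05 over 13116 genes tested). However, after each library was scaled to a common total (equal sums), 5 were higher and 18 lower. None of those 18 was among the 52. Among all genes tested as deposited, 25.7% were higher and 24.3% lower, and with equal sums 5.92% were higher and 64.3% lower. At an unadjusted p under 0.05, 61 members were higher and 0 lower as deposited. The members' median difference was 0.62 (1.54-fold), against 0.02 over all genes tested. Scaled to equal sums, the members' median was -0.12 and that of all genes -0.68. The members' median thus stood 0.61 above that of all genes as deposited and 0.56 above it with equal sums, and 75 and 74 of the 77 members lay above the median of all genes. The largest shift between scalings was therefore common to the members and to other genes, and each direction below is relative to the scaling as deposited unless another is named. The deposited saline and LPS values also differ in their zeros and lowest values (given under processing). Effects of that difference and of LPS cannot be told apart.

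Differences ranged from -0.07 to 1.80, and 75 of 77 were above 0, against 51.0% of all genes tested. The standard errors of the members lay between 0.13 and 0.26. In 62 members every LPS library was above every saline library (32.7% of all genes tested), and in 0 members every LPS library was below (30.7%). The 52 members called higher were all among these 62. At least 2-fold increases were found in 12 members (9.26% of all genes tested were called higher by 2-fold or more).

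**Figure D1:**
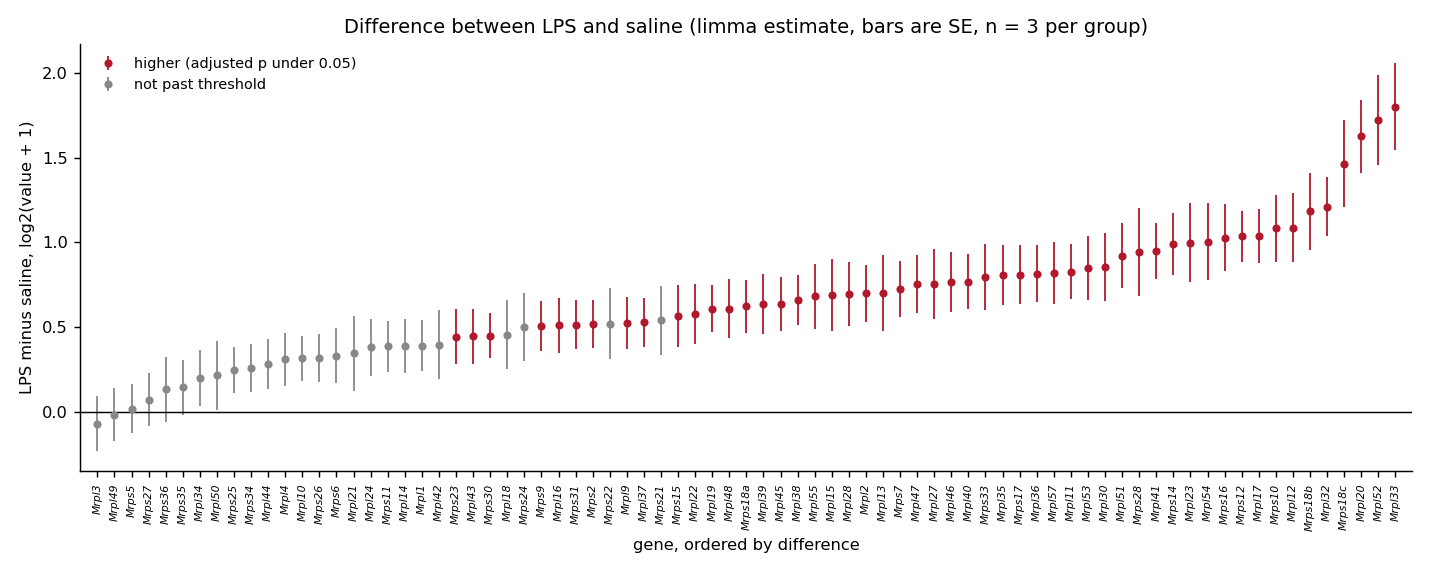
LPS minus saline difference of each of the 77 genes on the log2(value + 1) scale as deposited, ordered by size, with limma standard errors as bars (n = 3 per group). Red points passed an adjusted p of 0.05 (52 genes) and grey points did not (25). The differences form a gradual slope up to about 1.2, with 4 genes (Mrps18c, Mrpl20, Mrpl52 and Mrpl33) standing above it. With equal sums 18 of the 77 were called lower, all of them grey points here. Of all genes tested, 64.3% were lower under that scaling.

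The genes with the largest increases were Mrpl33, Mrpl52, Mrpl20 and Mrps18c. Mrpl33 encodes the mitochondrial counterpart of bacterial protein L33 of the large subunit (chromosome 5, 31613951 to 31622644, mm10). Its level was 6.88, 7.83 and 7.01 in saline 1, 2 and 3 and 8.92, 9.14 and 9.06 in LPS 1, 2 and 3. The groups did not overlap, and saline 2 was the highest of its group. The mean was 7.24 ± 0.52 (SD, n = 3) in saline and 9.04 ± 0.11 (SD, n = 3) in LPS, a difference of 1.80 (SE 0.26; limma adjusted p = 0.000669) or 3.48-fold.

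Mrpl52 encodes a large subunit protein without a bacterial counterpart (chromosome 14, 54426909 to 54429750). It was at 7.13, 8.19 and 7.55 in saline and at 9.32, 9.47 and 9.24 in LPS, the highest mean level of the family in both groups. The difference was 1.72 (SE 0.26; limma adjusted p = 0.000969). Mrpl20, the counterpart of bacterial L20 (chromosome 4, 155802878 to 155808831), was at 5.61, 6.44 and 5.94 in saline and 7.56, 7.68 and 7.63 in LPS, a difference of 1.63 (SE 0.22; limma adjusted p = 0.000481). In both genes the lowest LPS library lay more than 1 log2 unit above the highest saline library. These 3 large subunit genes, together with Mrps18c and Mrpl32, were the 5 members still higher with equal sums, with differences of 1.0 for Mrpl33, 0.92 for Mrpl52, 0.83 for Mrpl20, 0.67 for Mrps18c and 0.43 for Mrpl32.

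Mrpl32 encodes a large subunit protein that is cut to its mature form by the m-AAA protease of the inner membrane before it joins the ribosome (chromosome 13, 14610301 to 14613037). Its level was 4.81, 5.37 and 4.94 in saline and 6.21, 6.30 and 6.23 in LPS, with a difference of 1.21 (SE 0.18; limma adjusted p = 0.000733). Mrpl12 encodes the protein of the flexible stalk that binds translation factors, and it also binds the mitochondrial RNA polymerase (chromosome 11, 120484637 to 120488754). It was at 5.33, 5.87 and 5.64 in saline and at 6.44, 7.01 and 6.65 in LPS, a difference of 1.09 (SE 0.20; limma adjusted p = 0.00248). Mrps10, a small subunit protein with a bacterial counterpart (chromosome 17, 47368887 to 47381418), was at 3.90, 4.67 and 4.27 in saline and 5.28, 5.45 and 5.35 in LPS (difference 1.08, SE 0.20; limma adjusted p = 0.00215). The groups did not overlap in any of these 3 genes. With equal sums the difference of Mrpl12 was 0.30 and that of Mrps10 0.31, and neither passed.

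The 3 Mrps18 genes are paralogs, all related to bacterial protein S18, but their proteins occupy different places in the ribosome. The Mrps18c protein sits where S18 sits in bacteria, the Mrps18b protein lies elsewhere in the small subunit, and the Mrps18a protein belongs to the large subunit in spite of its name. Mrps18c (chromosome 5, 100798759 to 100804467) was at 6.32, 7.26 and 6.39 in saline and at 7.94, 8.27 and 8.15 in LPS, a difference of 1.46 (SE 0.26; limma adjusted p = 0.00178). Mrps18b (chromosome 17, 35910380 to 35916440) was at 3.94, 4.83 and 4.19 in saline and at 5.35, 5.47 and 5.71 in LPS, a difference of 1.18 (SE 0.23; limma adjusted p = 0.00275). Mrps18a (chromosome 17, 46111004 to 46128908) was at 5.17, 5.37 and 5.10 in saline and at 5.84, 6.00 and 5.66 in LPS, a difference of 0.62 (SE 0.16; limma adjusted p = 0.010). All 3 paralogs passed the threshold as deposited and the groups overlapped in none of them. By level in both groups the order was Mrps18c, Mrps18a and Mrps18b. With equal sums Mrps18c remained past the threshold, Mrps18b did not pass at 0.41, and Mrps18a turned to -0.16.

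At the other end, 8 genes had the smallest differences and none of them passed. Mrpl3 encodes a core protein of the large subunit near the site of peptide bond formation, and mutations of the human gene cause a cardiomyopathy (chromosome 9, 105053268 to 105077466). It was at 4.06, 4.33 and 4.23 in saline and 4.07, 3.95 and 4.4 in LPS, and the groups overlapped (difference -0.07, SE 0.16; limma adjusted p = 0.744). Mrps5, a small subunit protein shared with bacteria (chromosome 2, 127587426 to 127603986), was at 4.11, 4.24 and 4.0 in saline and at 4.09, 4.03 and 4.29 in LPS (difference 0.02, SE 0.14; limma adjusted p = 0.912). Mrps27, which encodes an RNA-binding protein of the small subunit (chromosome 13, 99344767 to 99415562), was at 3.03, 3.36 and 3.05 in saline and 3.19, 3.07 and 3.4 in LPS (difference 0.07, SE 0.16; limma adjusted p = 0.720). For these 3 genes the standard error exceeded the difference.

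Mrpl49, a large subunit protein found only in mitochondria (chromosome 19, 6053630 to 6057755), was at 3.96, 4.42 and 4.02 in saline and 4.08, 4.12 and 4.16 in LPS (difference -0.01, SE 0.16). Mrps36 was at 5.42, 5.77 and 5.08 in saline and 5.52, 5.47 and 5.68 in LPS (difference 0.14, SE 0.19; chromosome 13, 100735940 to 100744659). Despite its name, the Mrps36 protein is a subunit of the 2-oxoglutarate dehydrogenase complex of the citric acid cycle. Mrps35 had a difference of 0.15 (SE 0.16), Mrpl34 of 0.20 (SE 0.16) and Mrpl50 of 0.22 (SE 0.20). In all 5 the groups overlapped. The annotated exons of Mrpl49 overlap those of Syvn1 on the opposite strand, as those of Mrps27 and Mrpl19 overlap other genes, and whether reads were counted by strand is unknown, so the values of these 3 genes are uncertain. With equal sums, all 8 genes were called lower, with differences from -0.83 for Mrpl3 to -0.53 for Mrpl50. Under that scaling 64.3% of all genes tested were lower, and the median difference of all genes was -0.68.

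**Figure D2:**
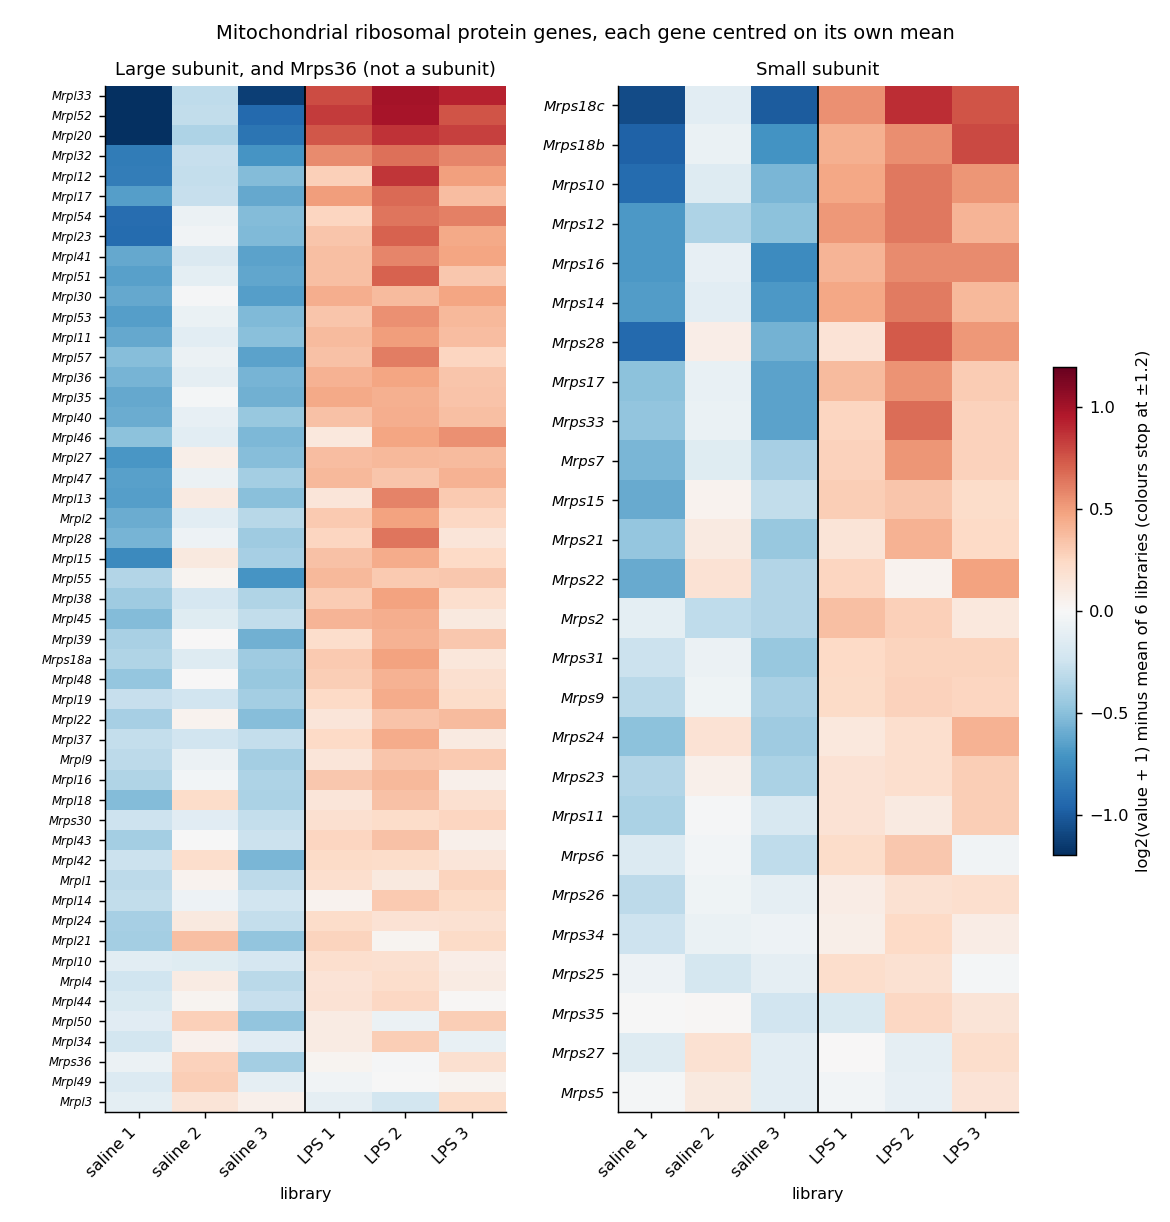
Each row is 1 of the 77 genes and each column a library; colour is the log2(value + 1) level as deposited minus that gene's mean over the 6 libraries. Rows are ordered by the LPS minus saline difference within the large subunit (left, with Mrps36 listed there although it is not a subunit) and the small subunit (right). In nearly all rows saline 1 and saline 3 are blue, the LPS columns are red and saline 2 lies between. This direction is that of the scaling as deposited. With equal sums 18 genes were called lower, none of which was called higher as deposited. Of all genes tested, 64.3% were lower under that scaling.

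By subunit, 37 of 50 large subunit genes were higher and 0 lower, with a median difference of 0.67, and 15 of 26 small subunit genes were higher and 0 lower, with a median of 0.52. With equal sums the counts were 4 higher and 10 lower in the large and 1 higher and 7 lower in the small subunit. These counts place Mrps30 and Mrps18a with the large subunit, where their proteins are found. Of the 30 large subunit genes shared with bacteria 21 were higher, and of the 20 large subunit genes without a bacterial counterpart 16 were higher, with medians of 0.69 and 0.64. Of the 16 small subunit genes shared with bacteria 11 were higher (median 0.65), and of the 10 without a bacterial counterpart 4 were higher (median 0.38). Mrps18a and Mrps18b, both called higher, were counted in the classes without a bacterial counterpart, although they are related to bacterial protein S18. The difference between these classes was not tested. Of all genes tested, 25.7% were higher and 24.3% lower as deposited, and 5.92% were higher and 64.3% lower with equal sums.

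Groups of neighbouring proteins in the ribosome were described in full, and they were chosen with the values known. At the rim of the exit tunnel, where the new protein leaves the large subunit, 5 of 6 genes were higher: Mrpl17 by 1.04, Mrpl23 by 1.0, Mrpl47 by 0.76, Mrpl45 by 0.64 and Mrpl22 by 0.58. Mrpl24 did not pass (0.38). The Mrpl45 protein helps to anchor the ribosome to the inner membrane, into which nearly all products are inserted. In the central protuberance, the part of the large subunit that faces the head of the small subunit, Mrpl40 (0.77), Mrpl46 (0.77), Mrpl27 (0.76), Mrpl38 (0.66) and Mrpl48 (0.61) were higher and Mrpl18 (0.46) did not pass. Of 4 stalk genes, Mrpl12 and Mrpl11 (0.83) were higher, while Mrpl1 (0.39) and Mrpl10 (0.32) did not pass. With equal sums 0 genes were higher and 1 was lower at the tunnel, 0 and 0 in the central protuberance and 0 and 1 in the stalks, so none of these increases held under that scaling. Of all genes tested, 25.7% were higher as deposited, and with equal sums 5.92% were higher and 64.3% lower.

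Mutations in 14 of the genes are known to cause inherited combined deficiency of oxidative phosphorylation in humans. Of these, 8 were higher as deposited: Mrpl12, Mrps16 (1.03), Mrps14 (0.99), Mrps28 (0.94), Mrps7 (0.73), Mrpl39 (0.64), Mrps2 (0.52) and Mrps23 (0.45). The other 6 did not pass, with Mrps22 at 0.52, Mrpl24 at 0.38, Mrpl44 at 0.29, Mrps34 at 0.26, Mrps25 at 0.25 and Mrpl3 at -0.07. With equal sums 0 of the 14 were higher and 5 lower. Of all genes tested, 25.7% were higher as deposited, and with equal sums 5.92% were higher and 64.3% lower.

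The levels of the 77 genes spanned a wide range. Group means ran from 2.33 to 7.62 in saline and from 2.94 to 9.34 in LPS, a 48.6-fold range before the log in saline and a 97.1-fold range in LPS. The lower and upper quartiles of the means were 3.98 and 5.40 in saline and 4.30 and 6.02 in LPS. The highest levels over the 6 libraries were those of Mrpl52, Mrpl33, Mrps21 and Mrps18c. Mrps21, a small subunit protein shared with bacteria (chromosome 3, 95862634 to 95871514), was at 7.34, 7.90 and 7.35 in saline and at 7.95, 8.21 and 8.04 in LPS. Its LPS libraries all lay above its saline libraries, and the difference of 0.54 (SE 0.21) narrowly missed the threshold (limma adjusted p = 0.0521). It passed without saline 2 (0.73; limma adjusted p = 0.00511), but its difference shrank to 0.13 after length correction. Quantile normalization turned it to -0.14, and equal sums gave -0.26. Over all alternatives its limma adjusted p ran from 0.00511 to 0.542.

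The lowest levels were those of Mrpl19, Mrpl1, Mrpl17 and Mrpl35, all large subunit proteins shared with bacteria. Mrpl19 (chromosome 6, 81957826 to 81965949) was at 2.36, 2.41 and 2.23 in saline and 2.88, 3.09 and 2.86 in LPS (difference 0.61, SE 0.14; limma adjusted p = 0.00598). Mrpl17, at the tunnel exit (chromosome 7, 105803782 to 105811087), was at 2.42, 2.80 and 2.46 in saline and at 3.58, 3.76 and 3.44 in LPS (difference 1.04, SE 0.16; limma adjusted p = 0.000965). Mrpl35 (chromosome 6, 71812997 to 71823784) was at 2.48, 3.07 and 2.51 in saline and 3.54, 3.52 and 3.43 in LPS (difference 0.81, SE 0.18; limma adjusted p = 0.00506). Mrpl1, the protein of the mobile L1 stalk (chromosome 5, 96209498 to 96266727), was at 2.49, 2.85 and 2.49 in saline and at 3.0, 2.92 and 3.08 in LPS, without overlap (difference 0.39, SE 0.15; limma adjusted p = 0.0533). At these low levels the added 1 in the log shrinks differences. With equal sums Mrpl19 turned to -0.06 and Mrpl1 to -0.30, and Mrpl17 (0.33) and Mrpl35 (0.11) did not pass.

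The order of the genes by level was nearly the same in every library. Across the 77 genes, which are not independent replicates and share the libraries, Spearman's rho was at least 0.97 between saline libraries, at least 0.98 between LPS libraries and 0.94 to 0.98 between a saline and an LPS library. Level went with transcript length, with Spearman's rho of -0.62 between the mean level and the length of the transcript.

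Saline 2 stood apart from the other saline libraries in this family. It held the highest saline value in 73 of the 77 genes, against 3 in saline 1 and 1 in saline 3. The median of the 77 genes was 4.52 in saline 1, 4.92 in saline 2 and 4.52 in saline 3, and 5.22, 5.30 and 5.24 in LPS 1, 2 and 3. Saline 2 exceeded the mean of saline 1 and saline 3 by a median of 0.45 in the members and of 0.00354 in all genes tested. The summed value of 8 neutrophil markers before the log was also highest in saline 2 within its group (1965, against 653 in saline 1 and 700.2 in saline 3; 9786 to 25379 in LPS). Its part in the members' level was not tested. Without saline 2, 65 of 77 members were higher and 0 lower, where 28.9% of all genes tested were higher and 23.9% lower, and the members' median was 0.74.

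Members' summed values before the log were 2262, 3417 and 2406 in saline 1, 2 and 3 and 4771, 5438 and 4954 in LPS 1, 2 and 3. As a share of all values over the genes present in all 6 libraries, these sums were 0.471%, 0.619% and 0.515% in saline and 0.547%, 0.614% and 0.580% in LPS. The sums did not overlap between the groups, but the shares did, with saline 2 above all 3 LPS libraries. The sum over all these genes was 467483 to 552368 in saline and 854330 to 885427 in LPS. The 187 genes with the highest mean (the top 1%) held 53.2% to 55.4% of it in saline and 64.3% to 65.8% in LPS. With those 187 genes left out of the sums used for scaling, 22 members were higher and 2 lower (12.0% and 42.3% of all genes tested), and the members' median was 0.25 against -0.35 for all genes.

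**Figure D3:**
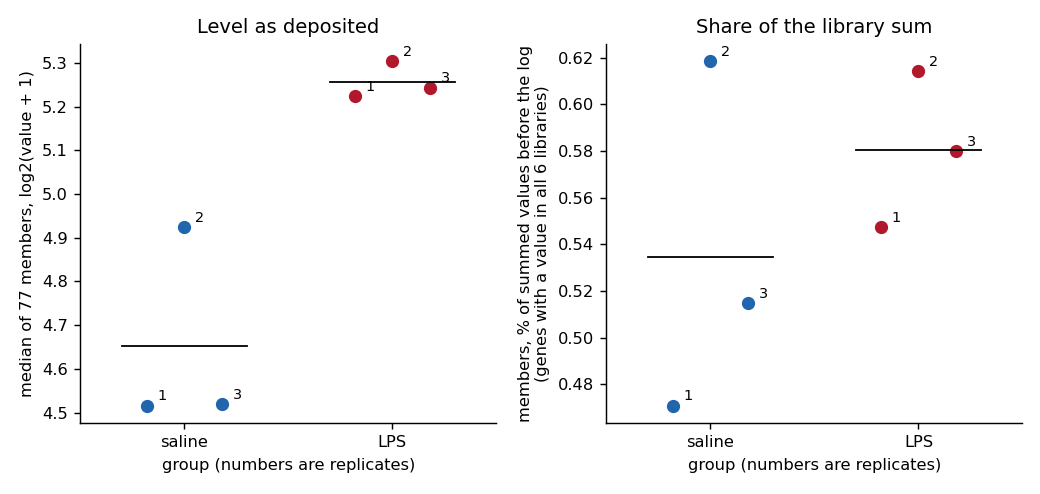
Left, the median log2(value + 1) level of the 77 genes in each library as deposited; right, their summed value before the log as a percent of the summed value of all genes with a value in all 6 libraries. Points are libraries, numbers are replicates, black lines are group means (n = 3), and neither vertical axis starts at 0. The LPS libraries lie above all saline libraries on the left (5.22 to 5.30 against 4.52 to 4.92), whereas on the right saline 2, at 0.619%, is above all of them.

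Quantile normalization and equal medians changed the number of calls, with 0 members lower in either. With quantile normalization, 30 members were higher (21.8% of all genes tested were higher and 22.7% lower), 29 of them among the 52, and the median was 0.38. With every library set to the same median, 56 were higher (27.7% and 22.9% of all genes tested) with a median of 0.67. Under the 5 scalings, as deposited included, the members' median stood 0.37 to 0.61 above that of all genes tested. Without a filter on low values 48 members were higher (15.9% and 17.5% of all genes tested were higher and lower), and with a mean value of at least 5 as the filter 53 were (32.1% and 18.8%). A pseudocount of 0.1 gave 52 members higher (25.6% and 24.2%), a fit without a variance trend 53 (25.9% and 24.1%) and the replicate number as a block 49 (21.3% and 20.0%). At the stricter threshold of 0.01, 32 members were higher (15.5% and 15.3%). Leaving out saline 1 gave 41 members higher (20.2% and 16.9%), saline 3 37 (20.5% and 17.9%), LPS 1 46 (19.6% and 19.7%), LPS 2 35 (18.3% and 18.9%) and LPS 3 45 (21.6% and 21.8%). In each of these fits 0 members were lower.

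**Figure D4:**
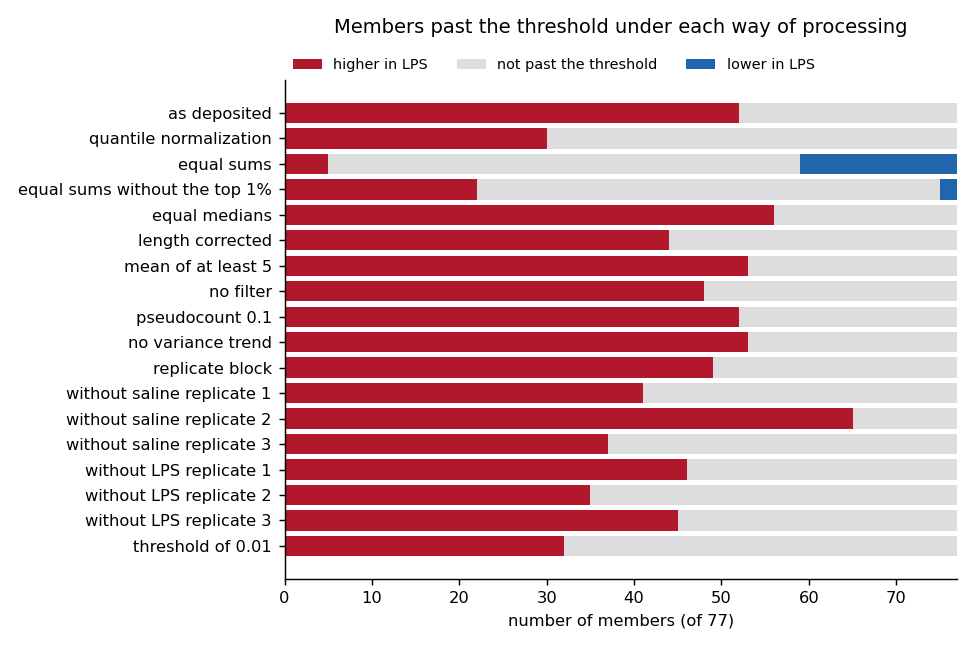
Number of the 77 genes called higher in LPS (red), not past the threshold (grey) and lower in LPS (blue) under each way of processing, with limma and an adjusted p of 0.05 except in the bottom bar (0.01). The red count is 52 as deposited and runs from 5 with equal sums to 65 without saline 2; blue appears only with equal sums (18) and with equal sums that leave out the top 1% of genes (2).

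Differences across all genes went with transcript length, and the members' transcripts were short. Median transcript length was 1047 bases in the members and 2120 bases over 12306 tested genes with a protein-coding transcript. Among tested genes of up to 600 bases the median difference was 0.41 and 43.3% were higher, while among genes of over 5000 bases the median was -0.48 and 7.22% were higher. Over the 77 members Spearman's rho between difference and log2 length was -0.29, and over all 12306 genes it was -0.32 (a description across genes that share the libraries). The members of up to 600 bases, 5 genes that include Mrpl33, Mrpl52 and Mrpl20, had a median difference of 1.63. In every length range the members' median was above that of all tested genes, though the range over 5000 bases held 1 member (Mrps25, at 0.25). With each library corrected for a smooth trend on transcript length, 44 members were higher and 0 lower (24.4% and 23.6% of all genes tested), 41 of them among the 52, and the members' median was 0.48 against 0.03 for all genes. Saline 2 showed the same order within its group, exceeding saline 1 and saline 3 by a median of 0.26 in tested genes of up to 600 bases whereas this median was -0.29 in genes of over 5000 bases.

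**Figure D5:**
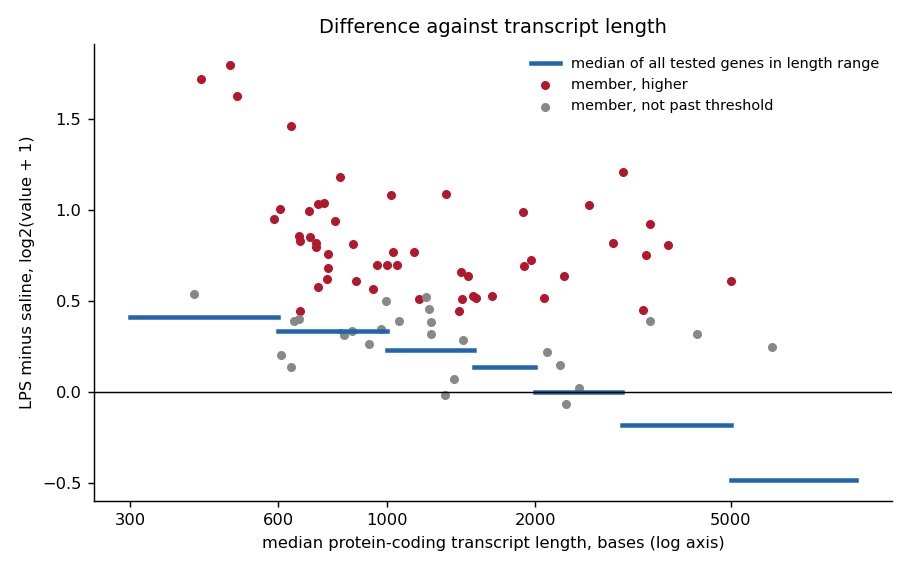
LPS minus saline difference as deposited on the log2(value + 1) scale (vertical) against the median length of a gene's protein-coding transcripts on a log axis (horizontal). Points are the 77 genes, red where higher and grey where not past the threshold, and blue bars are the median of all tested genes in each length range; the first and last ranges are open-ended and drawn only to the ends of the bars. The blue bars step down from 0.41 for the shortest genes to -0.48 for the longest, and most points lie above the bar of their range.

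The promoters of the members were searched for short motifs of factors known to drive nuclear genes for mitochondria: nuclear respiratory factor 1 (NRF1) and the ETS factor GABP, also called nuclear respiratory factor 2. RefSeq promoters on GRCm38.p6 were found for 68 of the 77 members, and the 250 bases before each start were searched on both strands. A short NRF1 motif, TGCGCA, was present in 17 of 68 members (25%), in 12.9% of 9968 tested genes with a promoter and in 7.36% of all 27025 genes with one. CCGGAAG, the core bound by GABP and other ETS factors, was present in 17 of 68 members (25%), 15.1% of tested genes and 7.83% of all genes. AAGATGGC, the YY1 motif, was in 4 members (5.88%) and 2.30% of tested genes. At least 1 of these 3 motifs was found in 33 members (48.5%) and 26.9% of tested genes. The E-box CACGTG, bound by Myc among others, was in 5 members (7.35%) and 9.74% of tested genes, and the NF-kB motif was in 4 members (5.88%) and 10.7% of tested genes. Among members called higher, 14 of 46 held TGCGCA (30.4%) and 11 of 46 held CCGGAAG (23.9%), and among the remaining members 3 of 22 (13.6%) and 6 of 22 (27.3%). The YY1 motif was in 3 of 46 and 1 of 22. The E-box was in 5 of 46 (10.9%) and 0 of 22, and the NF-kB motif in 1 of 46 (2.17%) and 3 of 22 (13.6%). These splits were not tested. These are counts of letters, not of bound sites, and motifs may overlap.

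Shown are the 120 bases before the start of the 4 members with the largest differences (Mrpl33, Mrpl52, Mrpl20 and Mrps18c) and of 4 with the smallest (Mrpl3, Mrpl49, Mrps5 and Mrps36), 5′ to 3′ on the gene's own strand, to set the ends of the range side by side. Mrps27, which comes before Mrps36 in that order, was left out because its window runs into another annotated start, and its window held an ETS core. That reason was not applied to the windows shown. By the GENCODE annotation, those of Mrpl3 and Mrpl49 also hold another start of the gene. The windows of Mrpl33, Mrps18c and Mrps5 lie wholly past such a start, and thus inside the gene by that annotation. Capitals mark TGCGCA (NRF1), CCGGAAG (ETS), AAGATGGC (YY1) and CACGTG (E-box), on either strand.
Mrpl33 (chr5:31613831-31613950, plus strand): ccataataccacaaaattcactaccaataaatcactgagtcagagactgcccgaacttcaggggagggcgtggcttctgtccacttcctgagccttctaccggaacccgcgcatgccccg
Mrpl52 (chr14:54426789-54426908, plus strand): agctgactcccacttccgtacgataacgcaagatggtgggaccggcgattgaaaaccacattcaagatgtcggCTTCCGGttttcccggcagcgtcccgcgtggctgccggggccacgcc
Mrpl20 (chr4:155802758-155802877, plus strand): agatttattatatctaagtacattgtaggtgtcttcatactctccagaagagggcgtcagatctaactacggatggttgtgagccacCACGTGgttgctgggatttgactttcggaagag
Mrps18c (chr5:100798639-100798758, plus strand): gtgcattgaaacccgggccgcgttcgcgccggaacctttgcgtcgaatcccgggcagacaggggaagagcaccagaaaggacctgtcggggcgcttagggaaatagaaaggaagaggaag
Mrpl3 (chr9:105053148-105053267, plus strand): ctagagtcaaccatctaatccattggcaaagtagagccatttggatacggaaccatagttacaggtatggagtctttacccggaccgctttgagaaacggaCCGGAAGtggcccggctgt
Mrpl49 (chr19:6057756-6057875, minus strand): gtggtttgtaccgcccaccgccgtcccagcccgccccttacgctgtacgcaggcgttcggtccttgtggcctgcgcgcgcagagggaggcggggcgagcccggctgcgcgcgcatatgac
Mrps5 (chr2:127587306-127587425, plus strand): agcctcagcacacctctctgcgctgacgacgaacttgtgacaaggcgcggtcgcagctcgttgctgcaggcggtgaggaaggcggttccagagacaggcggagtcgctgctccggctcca
Mrps36 (chr13:100744660-100744779, minus strand): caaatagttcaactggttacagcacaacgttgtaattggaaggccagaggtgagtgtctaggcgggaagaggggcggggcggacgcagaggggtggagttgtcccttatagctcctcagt

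Of these windows, those of Mrpl33 and Mrps18c at the upper end and of Mrpl49, Mrps5 and Mrps36 at the lower end held none of the 4 motifs. In the 250 bases searched above, Mrps18c held an ETS core and an E-box, and Mrpl33, Mrpl49, Mrps5 and Mrps36 held none of the 4. Mrpl52, which was called higher, and Mrpl3, which did not pass, each held an ETS core. Mrpl20 held an E-box. Among the 20 members named by rule that have a promoter in the table, 12 held none of the 4 motifs in the 120 bases and 8 held at least 1. No difference between the ends of the range was tested.

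Other genes of mitochondrial translation were counted from lists, to be read against the 25.7% of all tested genes that were higher and 24.3% that were lower as deposited, and 5.92% and 64.3% with equal sums. Outside the naming rule, 6 further proteins of the mitochondrial ribosome were tested, of which 3 were higher and 0 lower (4 and 0 at an unadjusted p under 0.05). Aurkaip1, whose protein is part of the small subunit, rose by 1.06 (SE 0.19; limma adjusted p = 0.00175), and the large subunit genes Gadd45gip1 (0.81) and Ict1 (0.71), which encodes a peptide-releasing hydrolase built into the ribosome, rose too. The small subunit genes Chchd1 (0.46), Dap3 (0.39) and Ptcd3 (0.20) did not pass. With equal sums 0 of the 6 were higher and 1 lower.

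Of 31 genes for ribosome assembly and quality control in mitochondria, 8 were higher (25.8%, a share near the 25.7% of all genes tested) and 1 lower, with a median of 0.17. The RNA helicase gene Ddx28 was higher by 1.23 (SE 0.15; limma adjusted p = 0.000360), at 2.47, 2.5 and 2.5 in saline and 3.98, 3.63 and 3.55 in LPS. The protease gene Clpp (0.87) and the assembly factor gene Malsu1 (0.72) were higher as well, and the GTPase gene Mtg2 was the member that was lower (-0.98). With equal sums 1 of the 31 was higher and 21 lower, where 64.3% of all genes were lower. Of 15 translation factor genes, 3 were higher (20%, below the share of all genes) and 0 lower (4 and 2 at an unadjusted p under 0.05), with a median of 0.19. Those were Slirp (1.52) and the elongation factor gene Tsfm (0.88), both with 2 LPS values, and the ribosome recycling factor gene Mrrf (0.41; limma adjusted p = 0.0487). With equal sums 1 was higher and 12 lower.

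Of 20 genes for mitochondrial tRNA charging, 2 were higher (10%, below the share of all genes) and 0 lower (3 and 1 at an unadjusted p under 0.05), with a median of -0.04. These were Yars2 (0.57, with 2 LPS values) and Rars2 (0.46), and with equal sums 0 were higher and 14 lower. Of 18 genes for transcription, replication and RNA processing in mitochondria, 4 were higher (22.2%) and 0 lower (5 and 0 at an unadjusted p under 0.05): Ssbp1 (0.85, with 2 LPS values), Pnpt1 (0.57), Rnaseh1 (0.48) and Mterf1a (0.43). With equal sums 0 were higher and 11 lower. Of 18 genes for import, chaperones and abundant mitochondrial proteins, 10 were higher (55.6%) and 1 lower, with a median of 0.53, among them the import channel gene Timm23 (1.23, with 2 LPS values) and the mitochondrial Hsp70 gene Hspa9 (0.97). With equal sums 0 were higher and 8 lower.

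Of 13 tested regulators of mitochondrial gene expression, 4 were higher (30.8%) and 2 lower. Myc, a growth-promoting transcription factor, was at 1.99, 2.19 and 2.73 in saline and 4.77, 4.42 and 4.09 in LPS, a difference of 2.13 (SE 0.23; limma adjusted p = 0.000202). The antioxidant regulator gene Nfe2l2 was higher by 0.89, and Gabpb2, which encodes a partner of GABP, was lower (-0.63), as was the lipid regulator gene Pparg (-0.51). Outside the naming rule, Pprc1 (0.48, limma adjusted p = 0.0376) and Esrra (0.42, limma adjusted p = 0.0437) were higher too. Ppargc1a and Ppargc1b were not tested. The genes for NRF1, YY1 and the other GABP subunits, named after their values were seen, did not pass. The difference of Nrf1 was -0.05 (limma adjusted p = 0.765). That of Gabpa, the DNA-binding part of GABP, was -0.25 (limma adjusted p = 0.169), and that of Gabpb1, another partner, was 0.35 (limma adjusted p = 0.111). Yy1, with 2 LPS values, had a difference of 0.45 (limma adjusted p = 0.0764). With equal sums 1 of 15 regulators that then passed the filter was higher and 9 were lower.

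Cytosolic ribosomal protein genes and nuclear genes for oxidative phosphorylation subunits are the sets most like the members, and their values are set beside them without a test. Of 77 cytosolic ribosomal protein genes 67 were higher and 0 lower (72 and 0 at an unadjusted p under 0.05), with a median difference of 0.94 and a median transcript length of 712 bases. Of 82 tested oxidative phosphorylation genes 47 were higher and 6 lower, with a median of 0.69 and a median length of 659 bases. This set was taken by gene symbol alone, so it may hold genes whose products are not subunits. Such genes may include Ndufa4l2 (-1.64, called lower), Atp5s (-0.38) and Atp5sl (-0.33), the last 2 not called. With equal sums, the cytosolic set had 6 higher and 0 lower and the oxidative phosphorylation set 3 higher and 27 lower, beside 5 and 18 in the members. With quantile normalization, which used only genes with a value in all 6 libraries, the cytosolic set had 7 higher and 10 lower. Of 74 oxidative phosphorylation genes then tested 7 were higher and 12 lower, beside 30 and 0 in the members. Of all genes tested in that way, 21.8% were higher and 22.7% lower. After correction for length, 51 of 77 cytosolic and 31 of 81 oxidative phosphorylation genes tested were higher, with 0 and 7 lower. The medians of these sets were 0.63 and 0.40, beside 0.48 in the members. Of all genes tested after that correction, 24.4% were higher and 23.6% lower. Cox8b (-2.62) and Cox6a2 (-1.76), which encode the heart and skeletal muscle forms of their subunits, were the oxidative phosphorylation genes with the largest decreases.

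Cell type markers differed between the groups in the same libraries, and in bulk RNA fewer cells of a type and less RNA per cell cannot be told apart. Cardiac muscle, a tissue rich in mitochondria, had 12 of 12 tested markers lower, and the summed value of the 9 with a value in all libraries was 265 to 2266 in saline and 55.8 to 180 in LPS, with 0 at 0. Of 9 tested neutrophil markers 8 were higher and 0 lower (9 and 0 at an unadjusted p under 0.05), and all 8 tested monocyte and macrophage markers were higher and 0 lower (8 and 0). All 6 B cell markers were lower, with a summed value of 205 to 324 in saline and 36.3 to 60.2 in LPS. Of 6 tested adipocyte markers 4 were lower, and Adipoq, Plin1, Cfd and Lep were at 0 in at least 1 library. T cell markers were lower in 3 of 6, alveolar macrophage markers higher in 1 and lower in 3 of 8, and of 6 markers of dividing cells 0 passed (0 higher and 2 lower at an unadjusted p under 0.05). The part of these cell types in the members' differences was not tested.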

How the data were processed

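TopHat and the mouse build mm10 are named in the submitters' processing notes. Per the labels' protocols, total RNA went into directional libraries. The sources used here name no counting tool, annotation or scaling. The values the authors deposited are log2 values, read as log2(value + 1) because they are at least 0, not whole and hold exact zeros. Low values multiplied by transcript length gathered in steps: the fullest bin, 0.1 log2 units wide, held 47 to 67 genes, against 22 to 37 without the length. The saline tables hold 1505 to 1936 values above 0 but under 0.01 against 11 to 24 in LPS. Each saline table holds 3869 zeros, and those of LPS 1, 2 and 3 hold 6097, 6223 and 5117 (the LPS 3 table is shorter). These differences in the deposited files coincide with treatment, so that their effects and those of LPS cannot be told apart.

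The 3 LPS and 3 saline libraries, grouped by title, were compared with limma 3.58.1 (R 4.3.3; variance trend) on all 13116 genes with a value before the log of 1 or above in at least 3 libraries, with Benjamini-Hochberg adjustment and a threshold of 0.05. Of these, 10295 had 6 values. On 3 simulations of 13116 genes for LPS against saline, the fit recovered 63.0% of genes changed 2-fold and 94.0% of those changed 4-fold, and 5.01% of its calls were false. Each simulation changed 200 genes and drew noise separately for each gene. In the data far more genes were called (3377 higher and 3188 lower) and genes share the libraries, so these rates may not hold there. No pair of libraries held identical values (0 genes at 1 or above). Transcript lengths came from GENCODE M21, positions and promoters from RefSeq (GRCm38.p6, the assembly also called mm10). Exons of 22 members overlap those of another gene in the tables, 20 on the opposite strand; whether the counting used strand is not given.

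The members and lists were chosen with earlier results of these data known. Members named by rule were the 8 highest and 8 lowest differences, the 4 highest and 4 lowest levels and the Mrps18 paralogs, and from each list up to 4 called genes with the largest differences. Others are named where a group is given in full. Alternatives concerned scaling, filter, pseudocount, variance trend, threshold, pairing and single libraries; the length correction (loess, span 0.5) and the sums without the top 1% of genes were added after the data were seen.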

Additional observations from a re-analysis of the deposited data

How the results depend on the processing

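Of the choices tried, the scaling between libraries moved the members most. Members higher numbered 52 as deposited, 30 with quantile normalization, 5 with equal sums, 22 with equal sums without the top 1% and 32 at a threshold of 0.01, and members lower 0, 0, 18, 2 and 0. The members' median of 0.62 became 0.38, -0.12 and 0.25 under those 3 scalings. All genes higher numbered 3377, 2239, 790, 1578 and 2033 in the same order, and all genes lower 3188 as deposited, 8576 with equal sums, 5577 with equal sums without the top 1%, 2004 under the 0.01 threshold and 1752 under the filter on a mean of 5. Single libraries left out gave 35 (without LPS 2) to 65 (without saline 2) members higher, 0 lower and medians of 0.55 to 0.74. Over all genes these fits gave 2367 to 3643 higher and 2140 to 3020 lower. The cause of these changes was not tested. Over all 77 members, differences above 0 as deposited fell below 0 in 50 with equal sums, 17 with equal sums without the top 1%, 10 with quantile normalization and 4 after length correction. Values follow for the 22 members named by rule, and only for those whose sign turned. With single libraries left out, differences ranged from -0.20 to 0.025 for Mrpl3, -0.099 to 0.13 for Mrpl49, -0.054 to 0.082 for Mrps5, -0.015 to 0.18 for Mrps27 and -0.034 to 0.31 for Mrps36. With equal medians the sign turned for Mrpl49 0.0287. With quantile normalization the sign turned for Mrps5 -0.0925, Mrps36 -0.24, Mrps35 -0.0173, Mrpl34 -0.20 and Mrps21 -0.14. With equal sums the sign turned for Mrps5 -0.74, Mrps27 -0.64, Mrps36 -0.65, Mrps35 -0.62, Mrpl34 -0.59, Mrpl50 -0.53, Mrps21 -0.26, Mrpl19 -0.0634, Mrpl1 -0.30 and Mrps18a -0.16. With equal sums without the top 1% the sign turned for Mrps5 -0.37, Mrps27 -0.29, Mrps36 -0.27, Mrps35 -0.25, Mrpl34 -0.20 and Mrpl50 -0.17. With values length corrected the sign turned for Mrps27 -0.11, Mrps36 -0.20 and Mrpl34 -0.14. As deposited, none of these genes passed the threshold except Mrpl19 and Mrps18a.

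Shared replicate numbers showed no sign of pairing: correlations of deviations from the group mean over 10295 genes were -0.23, -0.08 and -0.25 for equal numbers. No library correlated best with its own number. Since the deviations of a gene sum to 0 within each group, these correlations cannot exclude pairing. With the replicate block 49 members were higher and 0 lower, with a median of 0.62, and 2793 genes were higher and 2624 lower over all. Depth is unknown, so no detection limit is given; at 3 libraries a group, standard errors of 0.13 to 0.26 limit what differences near 0.4 can pass.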

Other observations

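The 77 genes lie on 17 chromosomes, and Mrpl46 and Mrps11 are the only neighbouring pair of members within 50000 bases of each other. They lie head to head on opposite strands and share exon sequence in the annotation, and the pair was singled out after its values were seen. Mrpl46 was at 4.12, 4.48 and 4.07 in saline and 4.74, 5.09 and 5.16 in LPS (difference 0.77, SE 0.18; limma adjusted p = 0.00633). Mrps11 was at 3.63, 4.0 and 3.81 in saline and 4.18, 4.12 and 4.31 in LPS (difference 0.39, SE 0.15; limma adjusted p = 0.0538). In both genes every LPS library was above every saline library. With equal sums neither was called in either direction.

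Among the 55 members whose exons overlap no other gene of the tables, 43 were higher and 0 lower as deposited, with a median difference of 0.69. Of all genes tested, 25.7% were higher and 24.3% lower as deposited. With equal sums, 5 of all 77 members were higher and 18 lower, with a median of -0.12, and counts for the 55 alone are not given. The part of exon overlap in the differences was not tested.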
